A study of Mus musculus with 10 samples.

Results

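The cytosolic ribosomal protein genes are described here in the left atrium of adult mice after removal of the transcription factor TBX5. Members were all rows of the deposited gene table named Rpl or Rps with a number, Rplp0, Rplp1, Rplp2 or Rpsa, without the Rps6k kinases and without names that mark pseudogenes. This gave 86 of 23337 rows. They comprise 46 canonical genes of the large subunit, 31 canonical genes of the small subunit, 7 paralogs (Rpl3l, Rpl7l1, Rpl10l, Rpl22l1, Rpl36al, Rpl39l and Rps27l) and 2 other rows. Those 2 are Rps4y2, which RefSeq lists under Rps4l, and Rps19bp1, which encodes a protein that binds RPS19 and is no subunit of the ribosome.

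RNA sequencing covered 10 libraries of left atrial tissue. The 4 controls (M1, M2, F1 and F2) were labelled wild type, Tbx5 +/+. The 6 knockouts (F1, F2, F3, M1, M2 and M3) were labelled Tbx5-/-, with exon 3 of Tbx5 removed by a tamoxifen-inducible Cre recombinase under the ubiquitous R26 promoter, a design that does not limit removal to cardiomyocytes. The knockout animals received tamoxifen by intraperitoneal injection on 3 days, with 0.167 mg each day, and their atria were collected 1 week later. All animals, controls included, were of a mixed C57B6 and 129 strain. Their age is 8 to 10 weeks in the sample labels and 6 to 8 weeks in the extraction protocol. The letter in a library's name gives the labelled sex (2 female controls, 3 female knockouts), and each name stands for an animal. The labels do not say whether the controls carried the Cre allele or received tamoxifen.

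A ribosome is built from ribosomal RNA and from proteins that are each encoded, in the mouse, by mostly single genes that carry introns. The small subunit reads the messenger RNA, and the large subunit joins the amino acids. Messenger RNAs of ribosomal proteins commonly start with a run of pyrimidines (C and T in the gene), the terminal oligopyrimidine tract, through which growth signals set their translation. The mouse genome also holds many processed pseudogenes, intronless copies of these messenger RNAs. Rpl3l is a paralog of Rpl3 found in heart and skeletal muscle, where its protein can take the place of RPL3 in the ribosome.

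Total assigned reads ran from 5701670 to 7697556 in the controls and from 5789632 to 7355782 in the knockouts, and 13191 genes entered the tests. Tbx5 was higher in the libraries labelled knockout, at 939 ± 125 normalized counts in controls and 1952 ± 336 in knockouts (SD), a log2 difference of 1.03 ± 0.14 (adjusted p = 4.78e-05). A count over the whole gene does not measure the loss of exon 3. Of the marker lists, 6 of 8 atrial cardiomyocyte genes fell and 2 rose, and the list's summed level ran from 605650.5 to 669519.6 in controls and from 301164.0 to 463702.7 in knockouts. All 8 macrophage markers and all 5 markers of dividing cells rose, where 20.8% of all genes tested rose and 21.8% fell. Of 7 fibroblast markers 5 rose and Pdgfra fell by 0.54 on the log2 scale (adjusted p = 0.00332). Summed levels were 3084 to 4328 against 7332 to 10999.6 for macrophages, 85.8 to 269 against 830.1 to 2314 for dividing cells, and 29901 to 33399 against 61229 to 93362 for fibroblasts. Ventricular markers summed to 1938 to 2550.2 in controls and to 5978 to 12177 in knockouts, with Myl2 and Myl3 higher, Myh7 and Hey2 not past the test and Irx4 at 0 in all libraries. Of 6 smooth muscle and pericyte markers 4 rose, and of 6 endothelial markers 3 rose and 1 fell. In bulk tissue, fewer cells of a type and less RNA per cell cannot be told apart, and the part of these marker differences in the results below was not tested.

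The sequence around the annotated transcription start is shown for Rpl3l and for those of the 8 canonical genes with the largest rises that matched a RefSeq entry, because the pyrimidine tract lies there. Rpl3 and Rps14 were not among the matches. Each line gives 15 bases before and 15 bases after the start on the gene's strand, from RefSeq on GRCm38.p6, with the longest run of C and T in capitals.
Rpl3l (chr17:24727811-24727840, plus strand): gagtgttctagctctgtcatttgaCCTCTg
Rps2 (chr17:24720048-24720077, plus strand): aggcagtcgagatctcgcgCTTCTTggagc
Rpsa (chr9:120127751-120127780, plus strand): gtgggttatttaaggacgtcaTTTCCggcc
Rpl39 (chrX:37085208-37085237, minus strand): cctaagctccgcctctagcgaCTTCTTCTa
Rpl41 (chr10:128549154-128549183, minus strand): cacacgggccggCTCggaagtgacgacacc
Rpl15 (chr14:18270972-18271001, minus strand): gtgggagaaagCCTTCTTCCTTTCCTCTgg
Rps26 (chr10:128626492-128626521, minus strand): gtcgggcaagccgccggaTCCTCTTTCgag
Rpl37a (chr1:72711245-72711274, plus strand): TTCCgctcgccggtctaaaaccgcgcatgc

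The run was 17 bases long in Rpl15 and crossed the annotated start, while in Rpl39 and Rps26 runs of 8 and 9 bases began 7 and 4 bases into the transcript. Rpl41 had a run of only 3 bases in this window, and Rpl3l had 5. Of the 77 canonical genes, 57 matched an entry. A run of at least 6 bases lay in the 30-base window of 35 of them (61.4%), against 32.7% of all 27025 genes with an entry and 33.2% of the 9348 among these that entered the tests. In addition, 2 words were searched on both strands of the 300 bases from 250 before to 50 after the start, and they do not overlap each other. CCGGAAG, the core bound by ETS-family factors, was present in 24 of the 57 (42.1%), against 9.93% of all genes and 18.9% of genes tested. GGTGTGA, the core of a T-box element, was in 0 of the 57, against 4.6% and 4.02%. A gene with several listed starts counted as holding a run or word if any of them did. These matches describe letters in annotated windows and do not show binding or the true start.

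Read counts of the members were spread widely. Levels are the authors' normalized counts, the raw count divided by a size factor per library, and levels of different genes are compared per kilobase of the principal GENCODE transcript. Among large subunit genes, Rplp1 (an acidic protein of the stalk that recruits elongation factors) had the highest control level at 3681 per kilobase, followed by Rpl8 at 3144, Rpl4 (which lines the peptide exit tunnel) at 1723.5 and Rpl22 at 1625.5. Among small subunit genes high control levels were seen for Rps14 at 1733, Rps9 at 1539 and Rps15 at 1523. At the other end, 19 canonical genes did not pass the filter on low counts. They included Rpl23a, Rpl24, Rpl26, Rpl27, Rpl28, Rpl30, Rpl34, Rpl35, Rpl36, Rpl36a and Rpl38 of the large subunit, and Rps13, Rps16, Rps23, Rps27, Rps27a, Rps28 and Rps29 of the small subunit. None of the 19 reached more than 14 reads in any library, and Rpl26 had 0 reads in all 10, which allows at most 3 of the 65018652 assigned reads (counting error only).

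Low counts went together with sequence shared with other genes. Windows of 51 bases, the length of the reads, were compared with the transcripts of all other GENCODE genes. The share of a member's windows that occur in another gene reached 98.6% in Rps27 and had a median of 54.2% over the 77 canonical genes. For Rpl3 it was 85.5%, shared with 26 other genes, all of them pseudogenes. The transcripts taken for Rps15a and Rps20 were long, at 5179 and 3706 bp. Of their windows 6.28% and 7.5% were shared, with 61 and 44 other genes, so these low shares are taken over many windows. In the 34 canonical genes with under 50% shared windows the median control level was 248 per kilobase, and 30 of them were tested. In the 43 with 50% or more it was 25.4 per kilobase, and 28 were tested. Over the 76 canonical genes with any read, Spearman's rho between shared windows and level per kilobase was -0.52, given as a description since the genes share all libraries and their annotation. How the counting treated reads that fit several genes is not given in the sources used here, so the levels of highly shared members are uncertain and their part in the low counts was not tested.

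**Figure D1:**
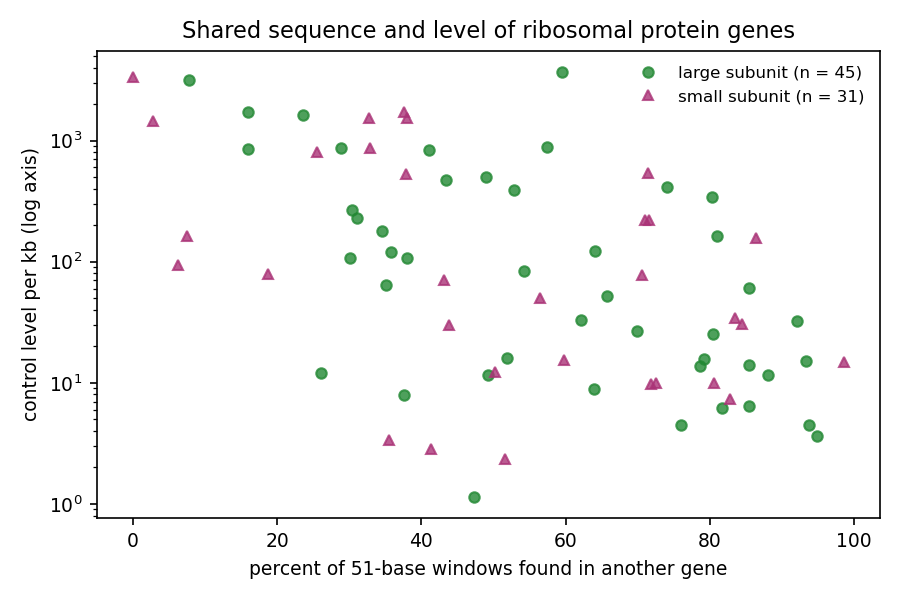
Control level per kilobase (normalized counts, log axis) of 45 large and 31 small subunit genes with any read, against the percent of their 51-base transcript windows that also occur in another gene. Genes above 1000 per kilobase lie mostly at the left, and genes under 10 per kilobase mostly at the right.

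The canonical genes rose or did not pass the test, and none fell. Of 58 tested, 20 rose in the knockout (34.5%), where 20.8% of all 13191 genes tested rose and 21.8% fell. Their median log2 fold change was 0.31, against -0.0009 over all genes tested. Of the 30 tested with under 50% shared windows, 14 rose (median 0.36), and of the 28 with 50% or more, 6 rose (median 0.22). In the large subunit 12 of 35 rose with a median of 0.35 and a range from -0.25 to 1.05, and in the small subunit 8 of 23 rose with a median of 0.16 and a range from -0.74 to 1.005. In 12 of the 58 the lowest knockout exceeded the highest control, a pattern seen in 16.3% of all genes tested, and in 0 did every knockout lie below (15% of all genes). In the authors' deposited table, 23 of the 76 canonical genes with an adjusted p were higher and 0 lower, where 18.7% of its genes were higher and 17.8% lower.

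The count for the large subunit rested in part on control M1, which was the lowest control for 41 of the 58: without it 7 rather than 12 large subunit genes rose, while 8 of the small subunit still did. The changes were small, and in a test against a fold of 1.2 the counts were 3 and 2. Offsets for transcript length and GC content lowered the median of the canonical genes from 0.31 to 0.17, with 9 and 7 genes called. The members are short, with a median transcript of 780 bp against 2961 bp over all genes tested, and in the 814 tested genes outside the members with transcripts of at most 1 kb the median log2 fold change was 0.10 and 25.9% rose.

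**Figure D2:**
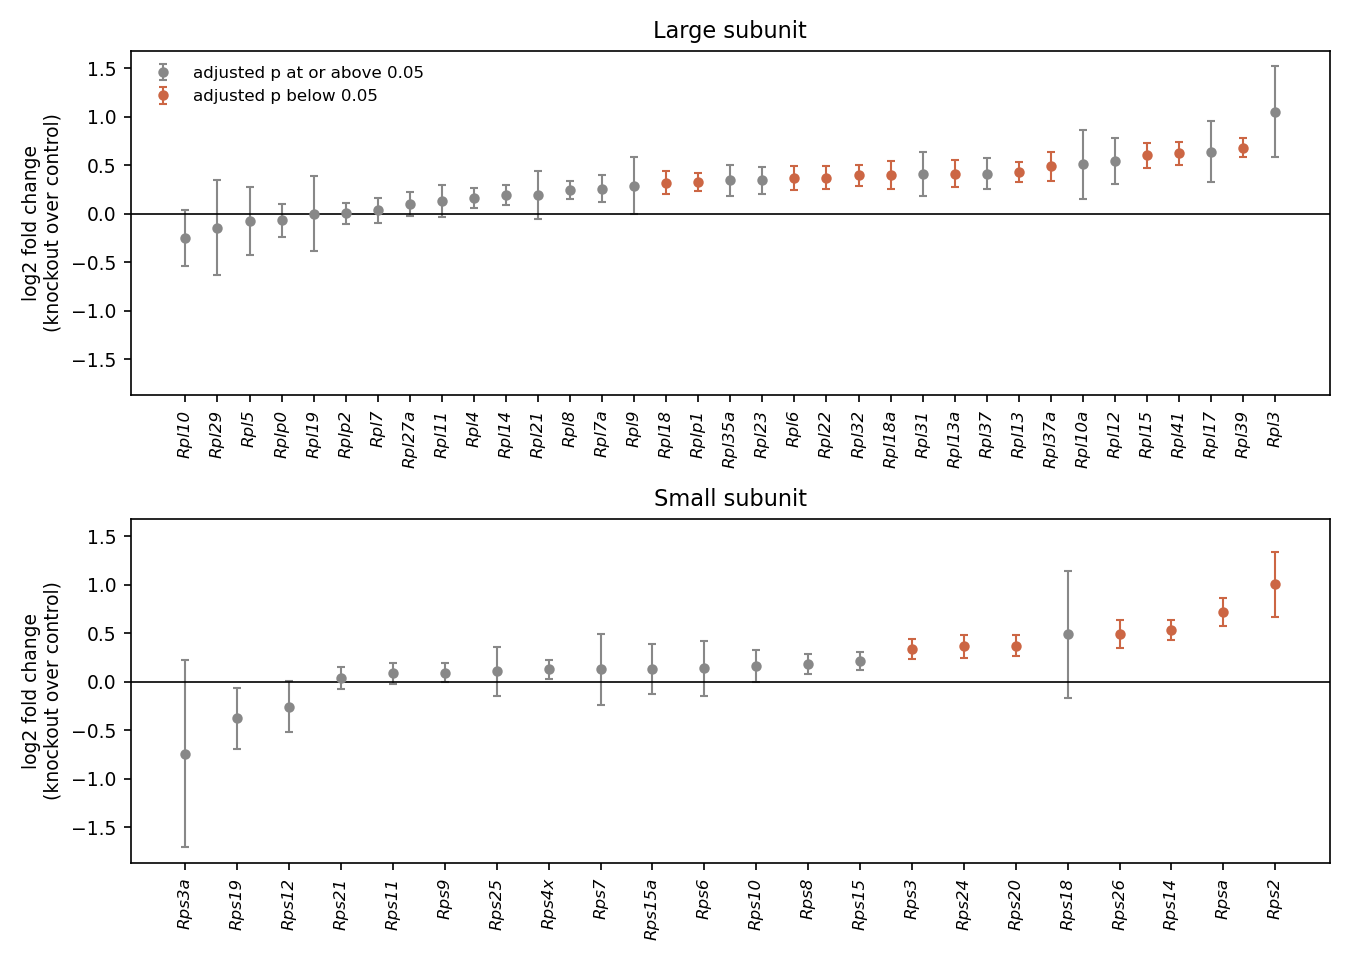
Log2 fold change (knockout over control, 6 against 4 libraries) of tested canonical genes, with the standard error, for the large and small subunit. Called genes (colour) all lie above 0, and the widest bars belong to Rps3a, Rps18, Rpl29 and Rpl3.

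Rps2, an uS5 family protein of the small subunit, had the largest rise past the test. Its controls M1, M2, F1 and F2 were at 48.5, 263, 404 and 249 normalized counts, and the knockouts ran from 456 to 527 with a median of 487. The groups did not overlap, but control M1 lay far below the other controls. The log2 fold change was 1.005 ± 0.34 (adjusted p = 0.0265), and it was 0.70 without control M1 (adjusted p = 0.00231). The call was lost with DESeq2 (adjusted p = 0.0515), with the length and GC offsets (0.0584), without control F2 (0.0504) and in males alone (0.0621), and 71.0% of its windows are shared with pseudogenes.

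Rpsa encodes the laminin receptor protein, which sits on the small subunit near the exit of the messenger RNA. Its controls were at 46.1, 61.0, 71.7 and 55.4 and its knockouts at 88.2 to 117 with a median of 94.6, with no overlap, a log2 fold change of 0.72 ± 0.14 (adjusted p = 0.00106). Rps14, a protein of the small subunit's platform, stood at 839.6, 1045, 1109 and 1145 in controls and at 1387 to 1725 (median 1527) in knockouts. Every knockout was above every control for Rps14, with a log2 fold change of 0.53 ± 0.10 (adjusted p = 0.00104). Rps26, which contacts messenger RNA upstream of the start codon, was at 311, 374, 347 and 409 in controls and at 335 to 597 (median 534) in knockouts. Its groups overlapped through knockout M1, the lowest of its group, and the log2 fold change was 0.49 ± 0.14 (adjusted p = 0.0135).

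Rpl39, a small protein at the peptide exit tunnel, had the smallest adjusted p of the tested members. Controls were at 452, 538, 548 and 538 and knockouts at 772 to 1004 with a median of 807, a log2 fold change of 0.68 ± 0.10 (adjusted p = 0.000111). Its groups stood well apart, and 16.0% of its windows are shared. Rpl41, among the shortest proteins known in the ribosome, was at 202, 295, 294 and 299 in controls and at 381 to 472 (median 429) in knockouts. The knockouts were again all higher, with a log2 fold change of 0.62 ± 0.12 (adjusted p = 0.00104). Rpl15 was at 222, 201.5, 214 and 191 in controls and at 262 to 413 (median 306) in knockouts. These controls differed little among themselves, and the log2 fold change was 0.605 ± 0.13 (adjusted p = 0.00195). Rpl37a was at 61.5, 44.0, 59.0 and 74.3 in controls and at 75.7 to 97.1 in knockouts, which just cleared the highest control, with a log2 fold change of 0.49 ± 0.15 (adjusted p = 0.0163). It was 0.38 without control M2 (adjusted p = 0.0501), 0.24 in females alone (0.336) and 0.77 in males alone (0.0609). With the length and GC offsets Rpl41 was at 0.41 and Rps14 at 0.33, both still past the test.

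Of the members named above for a high level per kilobase, Rplp1, Rpl22 and Rps14 rose. Rplp1 was at 1564.5, 1963, 1879 and 1940.3 normalized counts in controls and at 2197 to 2479.6 (median 2373) in knockouts, with a log2 fold change of 0.33 ± 0.09 (adjusted p = 0.00877). The length and GC offsets brought this to 0.10 (adjusted p = 0.242). Its groups did not overlap. The groups of Rpl22 overlapped, and it rose by 0.37 ± 0.12 on the log2 scale (adjusted p = 0.0184). That call was lost without control M1 (0.34, adjusted p = 0.0505), in females alone (0.20, 0.206) and in males alone (0.58, 0.0660). Rpl8 (0.25 ± 0.10, adjusted p = 0.0509), Rpl4 (0.16 ± 0.10, 0.229), Rps15 (0.21 ± 0.09, 0.0822) and Rps9 (0.10 ± 0.09, 0.441) did not pass.

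By position in the ribosome, the tested members are set against the 20.8% of all genes and 34.5% of canonical genes that rose. Of the P stalk, which binds the GTPases of elongation, Rplp1 rose (1 of 4, 25%), while the log2 fold changes of Rplp0, Rplp2 and Rpl12 were -0.07, 0.01 and 0.55 (adjusted p = 0.789, 0.966 and 0.0785). Rplp0 showed a split among controls, with 736 and 887 in M1 and M2 and 1345 and 1542 in F1 and F2. The 5S particle proteins Rpl5 and Rpl11, which can also bind MDM2, were at -0.08 and 0.13 and passed no test. Of 6 tested proteins of the exit tunnel and its opening, 2 rose (Rpl39 and Rpl22, 33.3%), with a range from 0.003 to 0.68. Of 8 tested proteins of the head of the small subunit, 2 rose (Rps3 and Rps20, 25%), with a range from -0.38 to 0.49. Rps3, which is also known in DNA repair, went from 2743 ± 228 to 3535 ± 374 normalized counts (SD).

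Seen per library, the canonical genes held 0.342%, 0.408%, 0.399% and 0.432% of assigned reads in controls M1, M2, F1 and F2. In the knockouts they held 0.465% to 0.590% with a median of 0.541%. The lowest knockout was M1 and the lowest control was M1, and the groups did not overlap. The mean share was 0.395% ± 0.0381 in controls and 0.535% ± 0.0434 in knockouts (SD), a ratio of 1.36, and no test was made of this sum. The large subunit went from 0.216% ± 0.0208 to 0.288% ± 0.0223 and the small subunit from 0.179% ± 0.0175 to 0.247% ± 0.0214. Reads in the large subunit were 1.18 to 1.22 times those in the small subunit in controls and 1.13 to 1.21 times in knockouts, so these ranges overlapped.

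The denominator of this share also moved. The 16 genes that were among the most abundant in any library accounted for 21.9% to 23.8% of the assigned reads of a control and for 13.9% to 17.5% of those of a knockout. Without them in the denominator the share was 0.443% to 0.563% in controls and 0.540% to 0.687% in knockouts, a ratio of 1.24 with overlapping groups.

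**Figure D3:**
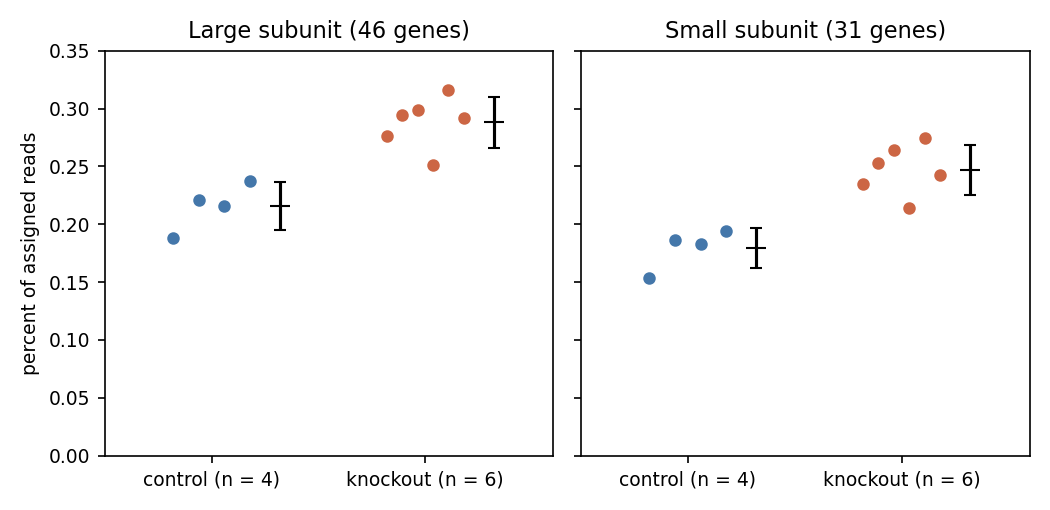
Percent of assigned reads in the 46 large and 31 small subunit genes, with a point for each library and the mean ± SD beside it. The 4 controls lie between 0.188% and 0.238% for the large and 0.154% and 0.194% for the small subunit, and all 6 knockouts lie above them.

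Rpl3l fell while its canonical counterpart Rpl3 was higher in 5 of 6 knockouts. Rpl3l (ENSMUSG00000002500.15, chr17:24727820-24736143, plus strand, GRCm38) was at 66.2, 97.4, 83.3 and 95.2 normalized counts in controls M1, M2, F1 and F2. In knockouts F1, F2, F3, M1, M2 and M3 it was at 58.7, 30.7, 52.2, 47.7, 31.2 and 58.9. Every knockout lay below every control, and no window of its transcript occurs in another gene. The log2 fold change was -0.91 ± 0.21 (adjusted p = 0.00300). The fall kept its direction and its call in every refit but that on males alone, where it was -0.85 (adjusted p = 0.0953).

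Rpl3 (ENSMUSG00000060036.14, chr15:80077791-80091868, minus strand, GRCm38) encodes a protein close to the peptidyl transferase centre. Its controls were at 67.4, 78.7, 85.6 and 94.1. The knockouts F1, F2, F3, M1 and M3 were at 189.6, 212, 229.6, 121 and 265, above every control, while knockout M2 was at 15.6, below every control. With all libraries the log2 fold change was 1.05 ± 0.47 and did not pass the test (adjusted p = 0.0844). Without knockout M2 it was 1.30 (adjusted p = 0.000257), and in females alone it also passed (adjusted p = 6.81e-05). In males alone it was 0.853 and did not pass (adjusted p = 0.503). In the fit of all libraries with a sex by genotype interaction, neither the female nor the male difference passed (adjusted p = 0.182 and 0.381). In limma-voom on all libraries the log2 fold change was 0.63 (adjusted p = 0.485). With 85.5% of its windows shared with pseudogenes, the Rpl3 count is uncertain in level.

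The ratio of Rpl3l to Rpl3 reads, which needs no scaling between libraries, was 0.983, 1.24, 0.973 and 1.01 in the controls. In knockouts F1, F2, F3, M1 and M3 it was 0.309, 0.145, 0.227, 0.393 and 0.222, and in knockout M2 it was 2, from 34 and 17 reads. Thus 5 knockouts lay below all controls and 1 above. The mean log2 ratio was 0.06 ± 0.16 in controls and -1.52 ± 1.33 in knockouts (SD), a difference of -1.59 (two-sided exact permutation test over all 210 splits, p = 0.0429, adjusted p = 0.0857 over the 4 paralog pairs compared, smallest possible p = 0.00476). The difference did not pass after that adjustment. Without knockout M2 it was -2.09 (exact permutation p = 0.00794), and without any other library the exact p lay between 0.0714 and 0.107.

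**Figure D4:**
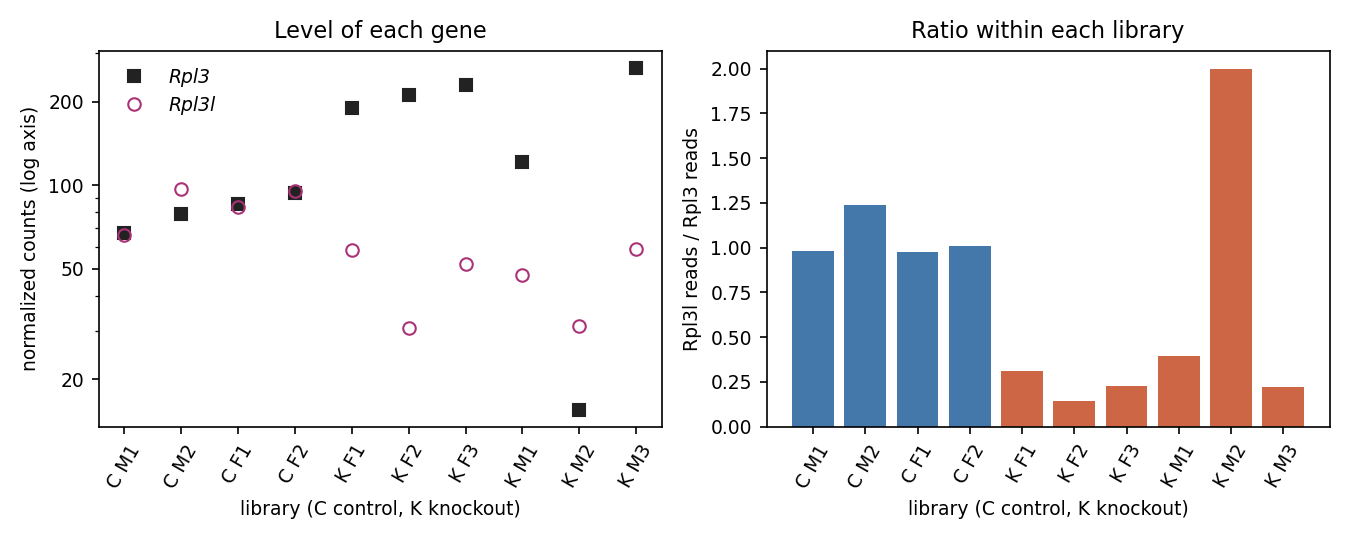
Left, normalized counts (log axis) of Rpl3 (squares) and Rpl3l (circles) in each library, and right, the ratio of their reads. Controls lie near a ratio of 1, and knockouts lie between 0.145 and 0.393 except knockout M2, where Rpl3 drops to 15.6 and the ratio is 2.

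Of the 5 paralogs tested, 3 rose (60%) and Rpl3l fell (1 of 5, 20%), against 20.8% and 21.8% of all genes tested. Rpl7l1, a relative of Rpl7 that acts in assembly of the large subunit, was at 322, 327, 309 and 281 in controls and at 329 to 450.5 (median 429) in knockouts, where M1 lay apart at the low end. Its log2 fold change was 0.41 ± 0.10 (adjusted p = 0.00548), while Rpl7 was at 0.04 (adjusted p = 0.844). The log2 ratio of Rpl7l1 to Rpl7 was -0.56 ± 0.19 in controls and -0.18 ± 0.14 in knockouts (SD), a difference of 0.38 (exact permutation p = 0.00952, adjusted p = 0.0381 over the 4 pairs). With 52.8% of its windows shared with 13 pseudogenes, the Rpl7 count is uncertain in level. Rps27l, known as a target of p53, was at 261, 340.4, 302 and 341 in controls and at 334 to 477 (median 453) in knockouts. The groups overlapped, and the log2 fold change was 0.43 ± 0.13 (adjusted p = 0.0140).

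Rpl22l1, which can substitute for Rpl22 in the ribosome, rose by 0.36 ± 0.14 on the log2 scale (adjusted p = 0.0462). That call was lost without controls M1, F1 or F2 or knockouts F3, M2 or M3, each in turn (adjusted p = 0.0512 to 0.113), in limma-voom (0.0531), with sex as a covariate (0.0506) and in either sex alone. The log2 ratio of Rpl22l1 to Rpl22 differed by -0.01 between groups (exact permutation p = 0.952). Rpl36al, with a log2 fold change of 0.25 ± 0.15, did not pass (adjusted p = 0.201). Rpl39l had at most 6 reads in any library and Rpl10l, a gene of the testis, had 0. The row Rps4y2 (0.26, adjusted p = 0.232) and its ratio to Rps4x (0.10, exact permutation p = 0.557) did not differ past the test, nor did Rps19bp1 (0.34, adjusted p = 0.0991). The ratios of Rpl36al to Rpl36a and of Rps27l to Rps27 were not tested, because the canonical genes had as few as 1 and 3 reads in a library. With 65.3%, 63.2% and 71.5% of their windows shared, the counts of Rpl22l1, Rpl36al and Rps4x are also uncertain in level.

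Some members varied more between animals of a group than between groups. Of the 58 members that averaged 20 or more normalized counts in either group, 47 varied by under 2-fold within both groups and 7 by at least 3-fold within a group. These 7 were picked after their values were seen. Rps3a was at 150 and 142 in controls M2 and F1 but at 3.55 and 5.23 in M1 and F2. In knockouts it was at 107 and 147 in M1 and M2 but at 4.36 to 9.35 in the rest. It thus had a high and a low level within each group, and its log2 fold change of -0.74 ± 0.96 did not pass (adjusted p = 0.568).

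Rps18, at the head of the small subunit, was at 5.91 in control M1 and 6.64 in knockout F3 and at 55.9 to 213 in all other libraries. Rpl29 was highest in control F2 at 79.5 and lowest in knockout M2 at 6.41. Rps15a was at 186 in knockout M1 and at 419 to 674.5 elsewhere. Rpl10, on chromosome X, was at 8.30 in knockout M1 and at 17.4 to 32.4 elsewhere. With Rpl3 in knockout M2 and Rps2 in control M1, described above, these complete the 7. No single library was low in all of them. Of the 7, all but Rps15a had over 65% of their windows shared with other genes. For Rps15a it was 6.28%, taken over a transcript of 5179 bp, against a median of 780 bp over the canonical genes. The part of shared reads in this spread was not tested.

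**Figure D5:**
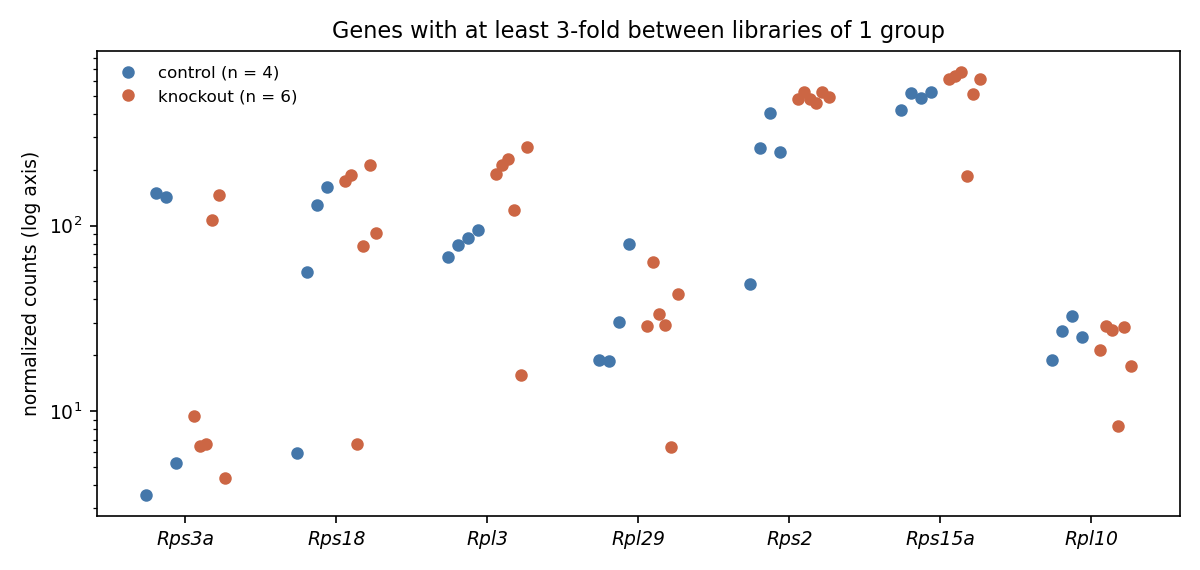
Normalized counts (log axis) of the 7 members with at least 3-fold between libraries of 1 group, with a point for each control (n = 4) and knockout (n = 6) library. Rps3a splits into libraries near 5 and libraries above 100 in both groups, and Rps2 has a single low control.

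Genes that work with the ribosomal proteins were grouped by role. Gnb2l1, which encodes the small subunit scaffold RACK1, was at 3127, 3569.5, 3453 and 3908 in controls and at 4123 to 5093 in knockouts. It lay higher in every knockout, with a log2 fold change of 0.39 ± 0.10 (adjusted p = 0.00561). Fau, whose product is a fusion of a ubiquitin-like domain with a ribosomal protein, averaged 2.50 in controls and did not pass the filter. Of 19 genes for elongation factors and other messengers with pyrimidine tracts, 3 rose (15.8%) and 0 fell, with a median of 0.09, where 20.8% of all genes tested rose. These were Pabpc1 (poly(A) binding protein, 0.64 ± 0.22, adjusted p = 0.0316), Eef1g (0.28 ± 0.10, 0.0379) and Eif3l (0.26 ± 0.08, 0.0215), and Eef1b2 at 0.25 did not pass (0.0638). The length and GC offsets ended the calls of Eef1g (0.16, adjusted p = 0.224) and Eif3l (0.16, 0.0888). Leaving out 1 library also ended those of Eef1g (controls M1, M2 or F1 or knockouts F1, F2 or M2, up to 0.0882), Eif3l (control F1, 0.0532) and Pabpc1 (control M2, 0.0805, or F2, 0.0745), and Pabpc1 was at 0.42 without knockout M1.

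Of 15 genes of RNA polymerase I, which transcribes ribosomal RNA, 2 rose (13.3%) and 3 fell (20%), against 20.8% and 21.8% of all genes tested. The rises were Polr1c (0.51 ± 0.15, adjusted p = 0.0138) and Znrd1 (0.46 ± 0.14, 0.0192). The falls were Ttf1, its termination factor (-0.47 ± 0.13, 0.00792), Twistnb (-0.41 ± 0.14, 0.0343) and Polr1a, named after its value was seen (-0.20, 0.0497). Twistnb was at -0.10 with the length and GC offsets (adjusted p = 0.503) and lost its call with DESeq2 (0.0621), without control M1 or F1, and without any knockout but M3 (up to 0.124). Znrd1 lost its call without control M1 (0.0561) or F1 (0.0509). Ttf1 lost its call in either sex alone, at -0.27 in females (0.224) and -0.66 in males (0.0535). Of 55 tested genes for ribosomal RNA processing and subunit assembly, 12 rose (21.8%) and 8 fell (14.5%), against the same background. Rrp12, needed for export of both subunits, was at 75.3 to 123 in controls and at 171 to 334 in knockouts, a log2 fold change of 1.34 ± 0.21 (adjusted p = 0.000197). Nhp2, of the pseudouridylation complex, rose by 0.84 ± 0.16 (adjusted p = 0.000805). The helicase gene Ddx10 fell by 0.69 ± 0.15 (adjusted p = 0.00223), and Mdn1, a large ATPase of the large subunit's assembly, fell by 0.57 ± 0.14 (adjusted p = 0.00404), a value that became 0.06 with the length and GC offsets (adjusted p = 0.785).

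Of 16 genes that set the making of ribosomal proteins, 4 rose (25%) and 5 fell (31.2%), against 20.8% and 21.8% of all genes tested. Myc, a driver of ribosome production, was at 17.7, 11.8, 6.94 and 14.6 in controls and at 28.1 to 71.5 (median 47.5) in knockouts. No control reached the lowest knockout, and the log2 fold change was 1.93 ± 0.31 (adjusted p = 0.000250). Its partner Max fell by 0.62 ± 0.09 (adjusted p = 0.000107). Rictor, a subunit of mTOR complex 2, went from 549, 494, 663 and 500.0 in controls to 254 to 348 in knockouts, a log2 fold change of -0.95 ± 0.11 (adjusted p = 2.35e-05) that was -0.48 with the length and GC offsets (0.000661). Tsc1, an inhibitor of mTOR complex 1, fell by 0.50 ± 0.10 (adjusted p = 0.00107). The remaining calls, named after their values were seen, were rises of Mycn, Rps6ka1 and Rheb and falls of Rps6kb1 and Rps6ka3.

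The genotype effect on the members did not differ past the test between labelled sexes. For the sex by genotype interaction, 0 of 65 tested members passed in edgeR and 0 in limma-voom, where 0.205% of all genes passed in edgeR. At an unadjusted p under 0.05 there were 2 in edgeR and 4 in limma-voom, and the smallest adjusted p was 0.313 and 0.330. The 2 in edgeR, named after their values were seen, were Rplp0 and Rpl5. The log2 fold change of Rplp0 was -0.39 in females and 0.37 in males, and that of Rpl5 was -0.80 and 0.65, with Rpl5 at no more than 13.7 normalized counts in any library. From the same fit, the median log2 fold change of the canonical genes was 0.26 in females and 0.38 in males, with 5 and 12 genes higher, where 13.5% and 12.8% of all genes tested were higher. With each sex fitted alone the order of the counts turned: 7 large and 8 small subunit genes rose in females (17.6% of all genes) and 4 and 2 in males (8.14%). No difference between these medians was tested.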

How the data were processed

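RNA was sequenced as single-end reads of 51 bp after globin depletion, per the labels' protocols, which name both an mRNA kit and ribosomal-depleted total RNA. The submitters' processing notes list TopHat2 2.0.11, featureCounts, FastQC and DESeq2, with build mm10. For the strand setting and reads fitting several genes, the sources used here give nothing. The authors deposited raw counts per gene and library, and a normalized signal, which is the count over the library's size factor (header names, checked on the values). The deposited log2 fold change, its ratio on the linear scale, and the p-value and adjusted p-value are the authors' own comparison, and so is the deposited Wald score, which was not used.

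Raw counts were tested with edgeR 4.0.16 in R 4.3.3 (filterByExpr, TMM scaling, quasi-likelihood F-test, Benjamini-Hochberg at 0.05 over 13191 genes), on 10 libraries without covariates. Standard errors were computed as |log2 fold change| over the root of F. The test functions were tested on simulated data. Paralog ratios needed at least 10 reads of each gene in every library. Depth of 5701670 to 7697556 reads per library leaves large counting error for members with few reads. Transcripts, lengths and shared windows come from GENCODE M21 (GRCm38), matched by symbol, and start windows from RefSeq. Compared values rest on separate animals by label, with no batch, litter or date given, so p-values measure the spread between these animals.

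The members and lists were chosen with earlier results of these data known. Named were Rpl3 and Rpl3l, the detected paralogs, up to 8 largest rises and falls past the threshold with a mean of at least 50 normalized counts, the 4 highest per kilobase in each subunit, members below the filter, and up to 4 genes per pathway list by adjusted p. Some genes that this rule names are not reported here. Alternatives were RLE, upper-quartile and library-size scaling, DESeq2 1.42.0, limma-voom (limma 3.58.1), no filter or at least 50 counts in 4 libraries, sex or a replicate block, offsets for length and GC (13061 genes, 99% of those tested), a fold of 1.2, an absolute log2 fold change above 0.5, each sex alone and each library left out.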

Additional observations from a re-analysis of the deposited data

Results flagged for a closer look

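Of 50 groups of libraries examined for a library far from the rest of its group, 7 held such a library, where chance alone gives nominally about 1 in 20 (the groups share libraries). Rpl36al was at 77.8 normalized counts in knockout M1, against 122.4 to 135.7 in the other knockouts. Rpl7l1 was at 329 in knockout M1, against 427 to 450.5. Rps26 was at 335 in knockout M1, against 513 to 597. Rpl39 was at 452 in control M1, against 538 to 548 in the other controls. Rpl41 was at 202 in control M1, against 294 to 299. Rpl39l was at 6.94 in control F1 and at 0 in the other controls. The log2 ratio of Rpl3l to Rpl3 was 0.31 in control M2, against -0.04 to 0.02 in the other controls. In each of the 5 cases that concern knockout M1 or control M1, that library lay below the rest.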

How the results depend on the processing

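The 12 large subunit genes that rose became 20 with scaling to library size only (which moved the median of all genes to 0.14, and that of the canonical genes to 0.44), 3 in the test against a fold of 1.2 and also with an absolute log2 fold change above 0.5, 4 in males, 7 in females, and 7 to 16 with a library left out. The 8 small subunit genes became 2 in the fold test, 3 with the size limit, 2 in males, and 8 to 11 with a library left out. In females, 1 large (Rplp0, -0.39) and 1 small subunit gene (Rps19, -0.94) fell, and no other setting gave a fall. The ratio of Rpl3l to Rpl3 (log2 difference -1.59) was -1.27 with the replicate block (exact p = 0.250) and -2.09 to -1.33 with a library left out. That block value rests on the 4 pairs of the same name, without knockouts F3 and M3. So few pairs cannot give a two-sided exact p under 0.05 whatever their values, so this p cannot decide. The block gave 11 and 8 genes, with Rpl3 at 0.44 (adjusted p = 0.477) and Rpl22l1 past the threshold no more (0.0523). Deviations of a control and a knockout of the same name correlated at -0.13 to 0.17, and those of other pairs at -0.18 to 0.19. With only 4 pairs of the same name, this cannot decide whether the names pair animals. The interaction gave 0 members past the test with any 1 knockout left out. Leaving out a control leaves a single control of its sex. Without control M2 the log2 interaction of Rps2 was 2.73, against 1.02 with all libraries. That value rests on control M1 as the only male control, where Rps2 was at 48.5, far below the other controls. Over 38 named genes and 873 refits, 753 kept their call or stayed uncalled, 88 lost the call and 31 gained it. Males alone accounted for 22 of the lost calls and females alone for 9. With the offsets the fall of Mdn1 reversed in sign (0.0586), and the uncalled rise of Rps15 also changed sign (-0.0147). The causes were not tested. The 19 canonical genes below the filter had at most 14 reads in any library, too few for a test here.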
